A study of Mus musculus with 6 samples.

Results

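The clustered protocadherin genes lie together on mouse chromosome 18, and the methylation of the CpG islands there was read in liver DNA by probe and by island. The members are the probes of a CpG island array whose start, in the mm8 build, falls within 37000000 to 38050000 on chromosome 18, a window that holds the Pcdha, Pcdhb and Pcdhg clusters with their flanks. They were chosen by position alone and number 100 of the 88737 probes of the array. Probes whose starts lay at most 500 bp apart were joined into 32 runs, which are numbered here in order along the chromosome. The 14 runs with at least 3 probes hold 76 of the probes and are called CGIs, and the other 18 runs hold the remaining 24 probes.

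Liver DNA came from 3 Mdr2-KO and 3 heterozygous Mdr2-/+ males of the FVB strain, all 12 months old, and each liver had its own array. The product of Mdr2 (Abcb4) moves phosphatidylcholine into bile, and its loss leads to chronic inflammation of the liver. The Mdr2-KO mice carry a germline disruption of Mdr2 in every tissue, and the controls carry 1 disrupted copy, so no wild type liver enters the comparison. On each array, DNA precipitated with an antibody against 5-methylcytosine (MeDIP, Cy5) was set against input DNA of the same liver (Cy3). Level below means the log2 ratio of MeDIP over input, centred on the median of its array, so that 0 is the typical probe and a higher value stands for more methylated DNA. A level also carries properties of the probe and of the CpG content around it, and is no percentage of methylated alleles. The DNA was that of whole liver, so that a change in the share of a cell type and a change of methylation within cells cannot be told apart.

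Clustered protocadherins are cell surface adhesion molecules of the cadherin superfamily and are best known from neurons. In the Pcdha and Pcdhg clusters each variable exon has its own promoter, whose transcript is spliced to constant exons that the cluster shares, while the Pcdhb genes have no shared constant exons. A neuron uses a few of these promoters, chosen largely at random, and promoters that are not in use are known to carry DNA methylation. The promoters of most of these genes bind CTCF, a factor whose binding is sensitive to methylation of its site. In the RefSeq gene table of the later GRCm38.p6 build, 14 Pcdha genes come first, followed by 22 Pcdhb genes and then, after Slc25a2 and Taf7, by 22 Pcdhg genes, with Diaph1 and Hdac3 behind them. Slc25a2 encodes a mitochondrial carrier and Taf7 a subunit of the general transcription factor TFIID, and a pseudogene, Gm8242, is listed after them. Only names and order were taken from that table. Because its build is not that of the array, no probe or CGI was assigned to a gene, exon or promoter, and positions in mm8 are given instead.

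Arrays differed in ways that bear on the results. Of the 3 slides, only the one with both replicate 1 livers carried Mdr2-/+ and Mdr2-KO side by side. Replicates 2 and 3 of Mdr2-/+ shared a slide of their own, as did replicates 2 and 3 of Mdr2-KO, so that among these 4 livers a slide effect and a genotype effect cannot be told apart. The SD of the log2 ratio over all probes was 1.83 on Mdr2-/+ replicate 1, 1.56 and 1.52 on Mdr2-/+ replicates 2 and 3, and between 1.66 and 1.75 on the Mdr2-KO arrays. Within the window, the scanner software called input well above background at 72% to 85% of the probes and MeDIP at 76% to 90%, depending on the array, and no spot was saturated. Both ranges start below those over all probes, 85.9% to 91.6% for input and 78.1% to 86.4% for MeDIP. At 6 of the 100 probes neither signal was well above background on any array, so that their ratios carry no usable level.

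The probes did not cover the window evenly. They lay between 37058076 and 37933496 in 5 groups separated by gaps of more than 50 kb. The first group held 29 probes in 14 runs from 37058076 to 37148268, and the last held 52 probes in 14 runs from 37769869 to 37933496. Between them lay a CGI of 6 probes at 37215774 (run 15), a CGI of 11 probes at 37269319 (run 16) and 2 lone probes at 37617127 and 37641826 (runs 17 and 18). The widest gap, 346617 bp, separated run 16 from run 17. Most CGIs were short, with a median of 4.5 probes against 5 over all 13822 CGIs of the array.

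Most CGIs of the window had a high level in the livers of both genotypes. The median level of the 14 CGIs was 2.55 in Mdr2-/+ and 3.33 in Mdr2-KO livers, whereas the median over all CGIs was -0.11 and -0.13, and over the 371 other CGIs of chromosome 18 it was -0.16 and -0.14. By liver, the median over the 14 CGIs was 3.33, 2.25 and 2.14 in Mdr2-/+ replicates 1, 2 and 3, and 3.32, 3.49 and 3.25 in Mdr2-KO replicates 1, 2 and 3. Mdr2-/+ replicate 1 thus stood with the Mdr2-KO livers, and Mdr2-/+ replicates 2 and 3 stood lower. A mean level above 2 was seen at 11 of the 14 CGIs (78.6%), against 11.5% of all CGIs and 7.82% of the other CGIs of chromosome 18. All 11 ranked at or above the 89.2 percentile of CGIs by level. These shares describe the window and were not tested. With normexp background correction the median Mdr2-/+ level of the 14 CGIs was 0.98. Of the 18 short runs, 12 had a mean level above 2.

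The highest runs lay in the first group of probes. The mean of this group over 29 probes was 3.67 ± 0.56 (SD, n = 3) in Mdr2-/+ and 4.06 ± 0.09 (SD, n = 3) in Mdr2-KO livers. The highest CGI was run 3 (37073968 to 37074249, 3 probes), with levels of 5.64, 4.54 and 4.52 in Mdr2-/+ replicates 1, 2 and 3 and of 5.48, 5.20 and 5.08 in the Mdr2-KO livers. The genotypes overlapped there, because Mdr2-/+ replicate 1 was the highest of the 6. The run of 2 probes at 37080449 (run 4) was higher still, at a mean of 5.67 over the 6 livers. The next CGIs in order of level were run 1 (37058076 to 37058302) at 4.56, run 6 (37088131 to 37088324) at 4.24, run 10 (37125643 to 37125996) at 4.18 and run 14 (37147897 to 37148268) at 4.11, all with 3 probes. The SD between the Mdr2-/+ livers was 0.53 to 0.77 at these 4, which is not the spread of a difference between CGIs read on the same arrays. Run 1 was above run 6 in each of the 6 livers. The order of runs 6 and 10, and that of runs 10 and 14, was not the same in every liver. Run 13 (37146230 to 37146798), which starts less than 2 kb before run 14, was the lowest CGI of this group at 2.26.

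The last group was more mixed. Its mean over 52 probes was 1.38 ± 0.40 (SD, n = 3) in Mdr2-/+ and 1.80 ± 0.17 (SD, n = 3) in Mdr2-KO livers. A block of 4 CGIs between 37879154 and 37894551 had mean levels of 2.63 to 3.27. Lone probes within it at 37889341 and 37889878 (runs 28 and 29) stood at 4.63 and 3.67, while lone probes before it at 37868154 and 37877689 (runs 24 and 25) stood at 0.74 and 0.61. Over the window, the median step in level was 0.58 between adjacent probes within a run (68 pairs) and 2.07 between adjacent probes of neighbouring runs (31 pairs), which lay up to 346617 bp apart. The order along the window was alike in the 6 livers, with a correlation of 0.956 to 0.996 between any 2 arrays across the 14 CGIs, which are not independent replicates and share their probes and base composition.

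Only 3 CGIs of the window had a level near that of the typical CGI, and they include the 2 with most probes. Run 32 (37931862 to 37933496, 14 probes), the last of the window, had levels of -0.48, -0.30 and -0.61 in Mdr2-/+ and of -0.82, -0.13 and -0.62 in Mdr2-KO livers. Run 16 (37269319 to 37270557, 11 probes) had levels of -0.61, 0.063 and -0.26 in Mdr2-/+ and of 0.31, 0.69 and 0.16 in Mdr2-KO livers. Run 19 (37769869 to 37770392, 5 probes) had levels of 0.29, 0.24 and -0.92 in Mdr2-/+ and of -0.60, -0.31 and -0.89 in Mdr2-KO livers. The genotypes overlapped in runs 19 and 32 and did not overlap in run 16, where every Mdr2-KO liver was higher. Run 19 was read with few usable signals, since MeDIP was well above background in 20% and input in 43.3% of its readings.

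The comparison of Mdr2-KO with Mdr2-/+ livers asks whether methylation in the window differs in the chronically inflamed liver. With limma and an adjusted p under 0.05, run 27 was the CGI that rose in Mdr2-KO livers and none fell. This 1 of 14 (7.14%) stands beside 4.28% of all CGIs called higher and 0.21% called lower. Before adjustment, a p under 0.05 was reached by 7 of the 14 CGIs (50%) with Mdr2-KO higher and by 0 with it lower, against 14.8% and 5.51% of all CGIs. Mdr2-KO livers were higher without overlap at 4 CGIs (28.6%, against 15.9% of all CGIs), and lower without overlap at 0 (against 10.8%). Delta Z is the difference between genotype means after division by the SD of each array, and 0 CGIs of the window reached 0.7 or -0.7, against 1.31% and 0.0362% of all CGIs. The mean of Mdr2-KO was above that of Mdr2-/+ at 12 of the 14 CGIs (85.7%, against 50.4% of all CGIs), and the median difference was 0.54 on the log2 scale, against 0.0031 over all CGIs. That median was 0.21 with loess, 0.22 with quantile normalization, -0.15 with slide as a fixed block, 0.34 without Mdr2-/+ replicate 2 and 0.83 without Mdr2-/+ replicate 1. The median standard error of a difference in the window was 0.27.

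The slide that held both genotypes gave another picture. There Mdr2-KO replicate 1 was above Mdr2-/+ replicate 1 at 5 of the 14 CGIs (35.7%, against 45.3% of all CGIs), with a median difference of -0.15. When Mdr2-/+ replicate 1 was left out, limma called 11 of the 14 CGIs higher, against 19.1% of all CGIs. When any other liver was left out it called 0, against 0.239% to 3.22% of all CGIs. At all 11 CGIs with a level above 2, Mdr2-/+ replicates 2 and 3 both lay below every Mdr2-KO liver, which was also so at 91.4% of the CGIs outside the window with such a level. At 5 of these 11, Mdr2-/+ replicate 1 lay above every Mdr2-KO liver, against 71% outside. The SD between livers was larger in Mdr2-/+ than in Mdr2-KO at all 11, as at 96.1% outside. The median difference at CGIs with a level above 2 was 0.62 in the window and 0.21 outside it, and on the shared slide it was -0.15 and -0.39. The part of slide and of array spread in these differences was not tested.

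Run 27 (37881560 to 37882271, 6 probes) was the CGI that passed the test. Its levels were 2.55, 2.16 and 1.90 in Mdr2-/+ replicates 1, 2 and 3 and 2.81, 3.18 and 3.21 in Mdr2-KO replicates 1, 2 and 3. Every Mdr2-KO liver was above every Mdr2-/+ liver, with replicate 1 of each genotype nearest to the other. Mdr2-KO was higher by 0.87 (standard error 0.19, limma adjusted p = 0.0455), of which the pair on the shared slide showed 0.26. All 6 probes had a higher mean in Mdr2-KO livers, by 0.48 to 1.20. At 5 of them the genotypes did not overlap, against 14.7% of all probes without overlap and with Mdr2-KO higher. Neighbouring probes of a CGI are not independent, so these counts are no further support for the call. The lowest probe of the CGI, which starts at 37881989, had input well above background on 1 array and MeDIP on 3, so its level is uncertain. Input was well above background in 55.6% of the readings of this CGI and MeDIP in 91.7%. The call ended in 13 of the other settings tried, among them normexp background correction (difference 0.28, adjusted p = 0.704), quantile normalization (0.45, 0.0852) and slide as a fixed block (0.26, 0.649), all from limma. It also ended with the replicate number as a block (adjusted p = 0.0787) and without any liver other than Mdr2-/+ replicate 1 (adjusted p 0.105 to 0.179).

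The CGIs around run 27 had differences of 0.74 to 0.87 with larger standard errors and did not pass. Run 26 (37879154 to 37879762, 4 probes) had levels of 3.66, 2.43 and 2.42 in Mdr2-/+ and of 3.55, 3.95 and 3.63 in Mdr2-KO livers, a difference of 0.87 (standard error 0.32, adjusted p = 0.177 from limma). Run 31 (37893816 to 37894551, 5 probes) had levels of 3.40, 2.34 and 2.16 in Mdr2-/+ and of 3.57, 3.57 and 3.29 in Mdr2-KO livers, a difference of 0.84 (standard error 0.30, adjusted p = 0.166 from limma). In both, Mdr2-/+ replicate 1 fell among the Mdr2-KO livers. Run 30 (37892152 to 37893027, 7 probes) had levels of 3.26, 1.99 and 2.13 in Mdr2-/+ and of 3.10, 3.40 and 3.08 in Mdr2-KO livers, and its adjusted p was 0.232 from limma for a difference of 0.74. On the shared slide the difference was -0.11 in run 26, -0.16 in run 30 and 0.17 in run 31. The signs in runs 30 and 31 each rest on 1 probe whose input was not well above background on any array, and without such probes, a choice made after the values were seen, the pair differed by 0.091 in run 30 and by -0.038 in run 31. Over the 6 livers the differences were then 0.97 and 0.66, and neither passed (adjusted p 0.120 and 0.207 from limma). With the authors' deposited values runs 30 and 31 both passed (adjusted p 0.000898 and 0.00525 from limma), in a setting that called 13.2% of all CGIs higher. The difference between runs 26, 27, 30 and 31 was not tested.

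Runs 13, 15 and 16 were the other CGIs at which the genotypes did not overlap. Run 13 had levels of 2.40, 1.42 and 1.79 in Mdr2-/+ and of 2.55, 2.78 and 2.63 in Mdr2-KO livers, a difference of 0.79 (standard error 0.23, adjusted p = 0.103 from limma). Run 15 (37215774 to 37216473, 6 probes) had levels of 2.50, 1.62 and 2.11 in Mdr2-/+ and of 2.70, 2.61 and 2.78 in Mdr2-KO livers, a difference of 0.62 (standard error 0.21, adjusted p = 0.145 from limma). In both the gap to Mdr2-/+ replicate 1 was small, and the pair on the shared slide differed by 0.15 and 0.20. The level in run 15 climbed from its first to its last probe, 648 bp away, by 1.87 to 2.92 in each of the 6 livers, and all 6 probes had a higher mean in Mdr2-KO livers, by 0.47 to 0.75.

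Run 16, of low level, had the largest difference on the shared slide of the 14 CGIs. Over the 6 livers Mdr2-KO was higher by 0.66 (standard error 0.20, limma adjusted p = 0.116), and between the replicate 1 arrays it was 0.92. Here Mdr2-/+ replicate 1 was the lowest of the 6 livers, unlike at the CGIs of high level. All 11 probes had a higher mean in Mdr2-KO livers, 10 of them were also higher in the pair on the shared slide, and the genotypes did not overlap at 6. The shares over all probes were 53%, 46.7% and 14.7%, and neighbouring probes of a CGI are not independent. The largest difference was at the probe that starts at 37269938, with levels of -0.22, -0.34 and -0.18 in Mdr2-/+ and of 0.72, 1.56 and 0.63 in Mdr2-KO livers (difference 1.22, adjusted p over all probes = 0.0729 from limma). The last probe was irregular, with a level of 4.18 in Mdr2-/+ replicate 2 against -0.60 and -0.57 in the other Mdr2-/+ livers, and its input was well above background on 3 of the 6 arrays. Without it, a choice made after the values were seen, the difference of the CGI was 0.70 and its adjusted p 0.0807 from limma.

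The remaining CGIs differed by less than 0.5. The other 5 CGIs of the first group (runs 1, 3, 6, 10 and 14) had differences of 0.35 to 0.46 (adjusted p 0.346 to 0.566 from limma), and in all 5 Mdr2-/+ replicate 1 was above every Mdr2-KO liver, with differences of -0.15 to -0.55 on the shared slide. In run 10, for example, the levels were 4.87, 3.54 and 3.56 in Mdr2-/+ and 4.33, 4.44 and 4.37 in Mdr2-KO livers. Only runs 19 and 32 had a lower mean in Mdr2-KO livers. Mdr2-KO minus Mdr2-/+ was -0.47 in run 19 (standard error 0.32, adjusted p = 0.463 from limma) and -0.062 in run 32 (standard error 0.19, adjusted p = 0.896 from limma). In run 32, 8 of the 14 probes were higher in Mdr2-KO livers and 2 did not overlap with Mdr2-KO lower, against 53% and 9.25% of all probes.

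Among the short runs, 17 of 18 had a higher mean in Mdr2-KO livers and 8 of 18 were higher in the pair on the shared slide. Of these, run 22 (37820408 to 37820539, 2 probes) had the largest difference of the 32 runs. Its levels were 1.47, 0.74 and 0.38 in Mdr2-/+ and 2.29, 2.05 and 2.14 in Mdr2-KO livers, without overlap. When runs of 2 probes were tested as well, it was the 1 run of 20 called in the window, against 3.85% of all 14885 runs called higher. Its difference was 1.29 (standard error 0.26, adjusted p = 0.0365 over 14885 runs from limma), and the pair on the shared slide differed by 0.82. Input at its first probe was not well above background on any array and MeDIP on 2, so the ratio of that probe is uncertain. There the pair on the shared slide differed by 1.43. At its second probe both signals were well above background on all arrays, and the levels were 2.08, 0.96 and 1.21 in Mdr2-/+ and 2.28, 2.37 and 2.29 in Mdr2-KO livers (adjusted p over all probes = 0.187 from limma). The difference at this second probe was 0.89, and 0.20 in the pair on the shared slide. At the lone probe of run 18 (37641826) the genotypes also did not overlap, with a difference of 0.51, and lone probes had no test as runs.

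No single probe of the 100 passed an adjusted p under 0.05 from limma over all 88646 probes tested, of which 1.89% were called higher and 0.122% lower. Before adjustment, a p under 0.05 was reached by 30 of the 100 with Mdr2-KO higher and by 2 with it lower, against 12.1% and 4.94% of all probes. The genotypes did not overlap at 26 probes with Mdr2-KO higher and at 5 with Mdr2-KO lower, against 14.7% and 9.25%. Of these 5, those at 37138004 and 37892408 had neither signal well above background on any array, and that at 37770253 had no MeDIP signal well above background. The mean was higher in Mdr2-KO livers at 87 of the 100, against 53% of all probes, and Mdr2-KO replicate 1 was above Mdr2-/+ replicate 1 at 48, against 46.7%. Without Mdr2-/+ replicate 1, limma called 30 of the 100 higher, against 5.95% of all probes. Without any other liver it called 0, for which no share over all probes was taken.

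The 2 channels were also tested apart, each centred on the median of its array. At the 11 CGIs with a level above 2 the MeDIP signal was higher in Mdr2-KO livers, by a median of 0.56 on the log2 scale, and the input signal differed by -0.11 to 0.12. Input passed at none of them (lowest adjusted p = 0.93 from limma), as at 0% of all CGIs higher and 0.00723% lower. MeDIP passed at 1, run 27, with a difference of 0.91 (adjusted p = 0.017 from limma), against 2.92% of all CGIs higher. At 9 of the 11 the input signal lay below the median of its array, with a median of -0.88 over the 11.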

How the data were processed

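The authors hybridised MeDIP and input DNA of 6 livers to Agilent mouse CpG island arrays designed on mm8. Their deposited scanner files hold intensity values, corrected for background and dye by Agilent Feature Extraction (10.5.1.1 in the file headers, 8.5.1.1 in the submitters' notes), with no normalization between arrays. A dye effect cannot be separated, since the labels give Cy5 to MeDIP on every array. As deposited, a further table holds a score per probe, the Z-score that the authors made from the raw arrays, and this served as an alternative.

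Here the log2 ratio of the processed intensities was centred on each array's median, control probes and probes with outlier spots (none in the window) were left out, and runs of at least 3 probes with starts at most 500 bp apart were averaged as CGIs. Genotypes were compared with limma 3.58.1 in R 4.3.3 (lmFit and eBayes, two-sided) over all 13822 CGIs or all 88646 probes, with Benjamini-Hochberg adjustment and a threshold of 0.05. The scripts were tested on simulated data. The labels call the samples biological replicates, and 3 arrays per genotype limit the precision. CGIs named were those with the highest and lowest levels and differences, those that passed and those with most probes, which takes in most of the 14, and the rest were added. Short runs and probes were named for their difference. The window and the lists were chosen with earlier results of these data known. Alternatives were other background corrections, normalizations, filters, island definitions, blocks, array weights, the methods' t-test and each array left out. Annotation and sequences of the window in mm8 were not used here.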

Additional observations from a re-analysis of the deposited data

How the results depend on the processing

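Across 22 other settings, and 2 more chosen after the data were seen, the direction and side of the threshold of the 14 CGIs were kept in 249 comparisons, against 30 that newly passed, 13 that no longer passed and 11 that turned. The number of CGIs called higher went from 1 to 0 with normexp background correction (0% of all CGIs called higher) and quantile normalization (7.16%). It was also 0 with the median over probes (3.34%), slide as a fixed (0.0506%) or random block (3.28%) and the methods' t-test (0.0289%). With probes limited to those with input above background on all arrays it was 0 as well (6.86%). The 10 CGIs left there did not include the called CGI, so that its call could not be made. The number rose to 5 once arrays were scaled to a common SD (9.19% of all CGIs), at runs 13, 16, 26, 27 and 31. It was 5 of 10 with the authors' deposited values (13.2%), at runs 6, 15, 16, 30 and 31 (adjusted p 0.000898 to 0.0409 from limma). Those 10 CGIs did not include run 27, so that its call could not be made there. With array weights the number was 12 (18.5%). The number ranged from 0 to 11 when 1 array was left out, 11 without Mdr2-/+ replicate 1 (19.1%) and 0 without any other (0.239% to 3.22%). With the replicate number as a block it was 0 (3.45% of all CGIs). Same-numbered livers did not deviate together (correlations of 0.114, -0.0938 and 0.12), so the numbers were not taken as pairs. No alternative called a CGI lower. The call of the CGI at 37881560 ended in 13 settings, with an adjusted p of 0.0509 to 0.704.

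The median difference was -0.15 with slide as a fixed block, which is the pair on the shared slide, and 0.21 to 0.83 otherwise. That block turned the difference of the CGIs at 37058076 to -0.15, 37073968 to -0.16, 37088131 to -0.22, 37125643 to -0.55, 37147897 to -0.31, 37879154 to -0.11 and 37892152 to -0.16, the last only with its probe of input at background. Loess turned that at 37073968 to -0.057. The small difference at 37931862 became 0.060 with probes limited by input, and ranged from -0.26 without Mdr2-KO replicate 2 to 0.087 without Mdr2-KO replicate 1 (0.019 without Mdr2-/+ replicate 2). The median Mdr2-/+ level was 0.98 with normexp, which moved the median difference over all CGIs to 0.11, and 3.43 with probes limited by input. A delta Z of 0.7 was reached by 2 CGIs with normexp and by run 22 with runs of 2 probes included. Probes called higher numbered 2 after division by the SD, 15 with the authors' values, 1 with probes limited by input, 25 with array weights and 0 to 30 with 1 array left out. Probes called lower numbered 2 with array weights and 0 to 1 with 1 array left out. For these delta Z and probe counts no array-wide share was taken, except 5.95% of probes called higher without Mdr2-/+ replicate 1. They therefore cannot be set against the rest of the array, where array weights called 18.5% and the authors' values 13.2% of all CGIs higher. Other causes of these changes were not tested.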
